A study of Mus musculus with 15 samples.

Results

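Meis1, Meis2, Meis3, Pbx2, Pbx3, Pbx4, Pknox1 and Pknox2 encode homeodomain partners of Hox proteins, and their RNA levels were followed from mouse neuromesodermal progenitors to 7 d derivatives. The genes were chosen by symbol, 8 of the 56092 named genes in the deposited expression table, and every one was measured in 15 bulk RNA libraries. The source was the mouse embryonic stem cell line STR-KI, with an mCherry reporter on 1 Sox2 allele and a GFP reporter on 1 allele of Tbxt (Brachyury). Cells were led to the progenitor state by 48 h in FGF2 at 10 ng/mL and another 24 h in FGF2 with CHIR99021, an activator of WNT signalling, at 5 µM, and were then sorted and replated in FGF/CHIR or in FGF alone, at doses that the labels do not state.

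The double positive starting population formed the NMP group (3 libraries). Progenitors kept for 48 h in FGF/CHIR were sorted as GFP+ (Tbxt 48 h, 2 libraries) or mCherry+ (Sox2 48 h, 2 libraries). Tbxt 7 d cells (3 libraries) came from Tbxt::GFP+ cells, spent 7 d in FGF/CHIR and were sorted as negative for both reporters. Cells derived from Sox2::mCherry+ cells formed 4 groups at 7 d. From culture in FGF/CHIR came double negative cells (FGF/CHIR DN, 1 library) and mCherry+ cells (FGF/CHIR Sox2+, 1 library), and from culture in FGF came double negative cells (FGF DN, 1 library) and mCherry+ cells (FGF Sox2+, 2 libraries). Every group carries both reporter alleles in a single cell line, and the labels do not say whether the libraries of a group were separate cultures, so the p-values below measure the spread between these libraries, which may be technical.

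Proteins of the Meis, Pbx and Pknox families belong to the TALE class, named for a short loop extension in the homeodomain. Pbx proteins bind DNA together with Hox proteins of the anterior and central paralog groups, and Meis and Pknox (also called Prep) proteins join Pbx through a conserved domain near the amino terminus, which helps to hold Pbx in the nucleus. In the embryo these factors act in hindbrain and spinal cord patterning, in limb buds and in paraxial mesoderm, and Meis1 and Meis2 are known to respond to retinoic acid.

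Values are CPM, read counts scaled to the same total in every library, and read numbers are given in M (mega). The step of 1 read was inferred from each library and gave 3.43 to 9.88 M reads in 14 libraries. FGF Sox2+ replicate 2 held 0.799 M reads, so that 3 reads, the floor used here, stood at 3.76 CPM there and at no more than 0.874 CPM in the other 14. Of the 120 member values, 98 were whole numbers of reads within 0.05 and the other 22 ended in 0.5 reads. RNA of the Sox2 and Tbxt genes followed the sorts at 48 h. Sox2 averaged 36.3 ± 3.01 CPM in Tbxt 48 h cells and 219 ± 2.62 CPM in Sox2 48 h cells (SD, n = 2 each). Tbxt averaged 219 ± 4.64 CPM in Tbxt 48 h cells and 30.7 ± 1.98 CPM in Sox2 48 h cells (SD, n = 2 each). At 7 d the FGF DN library, sorted as negative for both reporters, held 29.1 CPM Sox2 and 20.4 CPM Tbxt. FGF/CHIR DN held 5.03 and 1.14 CPM, and FGF Sox2+ cells held 390 and 388 CPM Sox2 and 4.88 and 8.76 CPM Tbxt. Libraries of a group correlated at r = 0.943 or more over log2 values, with Tbxt 7 d replicate 1 (0.945 and 0.943 with the other libraries of its group, which reached 0.988 with each other) and the FGF Sox2+ pair (0.951) the least alike.

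Meis1 and Meis2 had the widest spans of the 8 genes, and the 250 bases before their starts are shown for that reason. They are RefSeq sequences on build GRCm38.p6, whereas the reads were aligned to GRCm39. The Meis1 window is chr11:19018970-19019219 and the Meis2 window chr2:116064620-116064869, both on the minus strand and both upstream of the annotated start. Capitals mark CTTTGA, a core of TCF/LEF sites, through which WNT signalling acts on DNA; this motif was picked after the sequences had been seen.
Meis1: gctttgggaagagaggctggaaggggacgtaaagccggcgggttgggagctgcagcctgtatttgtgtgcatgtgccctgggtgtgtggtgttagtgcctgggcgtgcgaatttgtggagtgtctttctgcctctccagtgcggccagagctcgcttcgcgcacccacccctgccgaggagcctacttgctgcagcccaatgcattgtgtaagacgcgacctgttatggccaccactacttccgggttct
Meis2: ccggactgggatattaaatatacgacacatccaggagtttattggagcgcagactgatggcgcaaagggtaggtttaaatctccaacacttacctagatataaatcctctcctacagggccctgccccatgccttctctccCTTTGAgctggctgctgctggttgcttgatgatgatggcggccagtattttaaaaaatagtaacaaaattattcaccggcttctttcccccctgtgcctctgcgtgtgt
CTTTGA occurred once in the Meis2 window and not in the Meis1 window, searched on both strands, and 13.8% of 32851 promoter windows of the same length held it. Promoter windows were found for 5 of the 8 genes (Meis1, Meis2, Meis3, Pbx2 and Pbx4). None of the 5 held TGACAG, a core bound by Meis and Pknox proteins (15.9% of all windows), or TGATNNAT, a core bound by Pbx with Hox (7.68%), on either strand.

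Meis1 encodes a Meis protein studied in blood, limb and heart development. It stood at 1.56, 2.25 and 2.44 CPM in NMPs, where it rested on 12, 14 and 21 reads, at 9.21 and 12.8 CPM in Tbxt 48 h cells and at 12.4 and 16.8 CPM in Sox2 48 h cells. At 7 d it stood at 61.9, 45.7 and 52.1 CPM in Tbxt 7 d cells, 43.9 CPM in FGF/CHIR DN, 61.5 CPM in FGF DN, 78.0 CPM in FGF/CHIR Sox2+ and 158 and 197 CPM in FGF Sox2+ cells. The 48 h libraries were all above the NMPs and the 7 d libraries all above those of 48 h, and the highest group mean (FGF Sox2+) was 85.3 times the lowest. Among neighbours in the order of the means, FGF DN overlapped Tbxt 7 d and Sox2 48 h overlapped Tbxt 48 h. Genes that overlap Meis1 on the same strand (Gm37818, 2900018N21Rik and 2610001A08Rik) reached at most 6.37 CPM, and the antisense genes Gm16140 and Gm16141 at most 5.01 CPM. Whether counting used strand is not stated, so reads of Meis1 and of its antisense genes cannot be told apart.

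Meis2 encodes a Meis protein of the developing brain, neural crest and paraxial mesoderm. It stood at 16.6, 17.4 and 17.1 CPM in NMPs, at 77.1 and 99.1 CPM in Tbxt 48 h cells and at 20.9 and 26.9 CPM in Sox2 48 h cells. The 7 d values were 159, 249 and 242 CPM in Tbxt 7 d cells, 21.5 CPM in FGF/CHIR DN, 69.5 CPM in FGF DN, 39.6 CPM in FGF/CHIR Sox2+ and 230.4 and 419 CPM in FGF Sox2+ cells. Both Tbxt 48 h libraries were above both Sox2 48 h libraries, and FGF/CHIR DN cells at 7 d lay within the range of Sox2 48 h cells. FGF Sox2+ and Tbxt 7 d overlapped at the top of the order, and the highest group mean was 19.1 times the lowest.

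**Figure D1:**
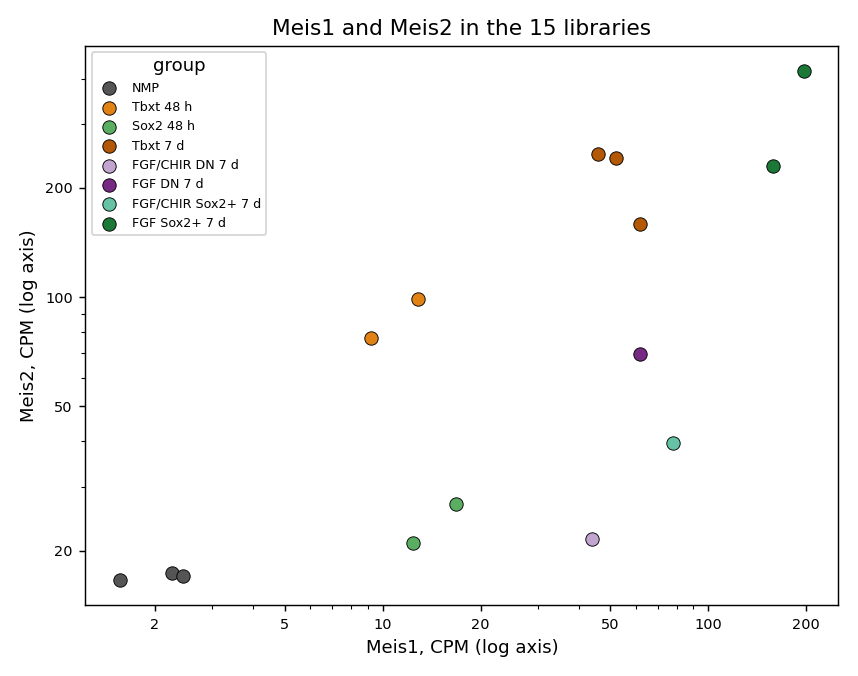
Meis1 (horizontal, CPM, log axis) against Meis2 (vertical, CPM, log axis), 1 point per library, coloured by group. NMPs lie at the lower left and FGF Sox2+ libraries (158 and 197 CPM Meis1) at the upper right, while the FGF/CHIR libraries derived from Sox2 cells hold 43.9 and 78.0 CPM Meis1 with 21.5 and 39.6 CPM Meis2.

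Meis3, a Meis gene whose role in hindbrain patterning is known from Xenopus, had another pattern. It stood at 46.0, 48.2 and 45.2 CPM in NMPs, at 44.2 and 36.6 CPM in Tbxt 48 h cells and at 45.9 and 44.3 CPM in Sox2 48 h cells. At 7 d it stood at 9.90, 2.97 and 2.37 CPM in Tbxt 7 d cells, 6.17 CPM in FGF/CHIR DN, 35.5 CPM in FGF DN, 22.1 CPM in FGF/CHIR Sox2+ and 44.0 and 80.1 CPM in FGF Sox2+ cells. The NMP and 48 h libraries lay between 36.6 and 48.2 CPM, and the lowest group mean at 7 d was that of Tbxt 7 d, whose range held the FGF/CHIR DN value. The highest group mean was 12.2 times the lowest.

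Pbx2, a broadly expressed Pbx gene, varied least among the Pbx genes, with a highest group mean 2.68 times the lowest. It lay between 45.3 and 61.4 CPM in the 7 NMP and 48 h libraries. At 7 d it stood at 113, 128 and 138 CPM in Tbxt 7 d cells, 88.9 CPM in FGF/CHIR DN, 59.6 CPM in FGF DN, 104 CPM in FGF/CHIR Sox2+ and 102 and 100.2 CPM in FGF Sox2+ cells, so that FGF DN was the one 7 d group within the earlier range. Gpsm3, which overlaps Pbx2 on the same strand, had 0.495 to 3.20 CPM.

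Pbx3, a Pbx gene known from the nervous system, stood at 17.4, 17.4 and 19.0 CPM in NMPs, at 24.7 and 32.7 CPM in Tbxt 48 h cells and at 9.84 and 9.60 CPM in Sox2 48 h cells. The 7 d values were 50.4, 69.7 and 70.6 CPM in Tbxt 7 d cells, 47.1 CPM in FGF/CHIR DN, 27.0 CPM in FGF DN, 23.6 CPM in FGF/CHIR Sox2+ and 86.2 and 93.9 CPM in FGF Sox2+ cells. Tbxt 48 h libraries were above and Sox2 48 h libraries below every NMP library, FGF DN lay within the range of Tbxt 48 h, and the highest group mean was 9.26 times the lowest.

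Pbx4, a Pbx gene best known from the testis in mice, was low throughout and rested on 5 to 34 reads per library. It stood at 4.41, 2.09 and 3.72 CPM in NMPs, at 0.81 and 0.84 CPM in Tbxt 48 h cells and at 2.78 and 3.43 CPM in Sox2 48 h cells. Values at 7 d were 3.20, 2.77 and 2.90 CPM in Tbxt 7 d cells, 2.06, 2.17 and 3.39 CPM in FGF/CHIR DN, FGF DN and FGF/CHIR Sox2+ cells in that order and 6.79 and 10.0 CPM in FGF Sox2+ cells. It passed the filter for testing (5 CPM in 2 libraries) only through FGF Sox2+ cells. NMP, FGF/CHIR Sox2+, Sox2 48 h and Tbxt 7 d cells followed each other in the order of means with overlapping ranges, and the highest group mean was 10.2 times the lowest.

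Pknox1, a broadly expressed Pknox gene, varied least of all 8 genes (highest group mean 2.11 times the lowest). It stood at 16.8, 29.9 and 23.8 CPM in NMPs, at 24.1 and 20.3 CPM in Tbxt 48 h cells and at 23.7 and 23.4 CPM in Sox2 48 h cells, and these 3 groups overlapped. Its 7 d values were 49.4, 40.4 and 47.5 CPM in Tbxt 7 d cells, 32.1 CPM in FGF/CHIR DN, 34.5 CPM in FGF DN, 46.9 CPM in FGF/CHIR Sox2+ and 22.8 and 35.7 CPM in FGF Sox2+ cells. The lower FGF Sox2+ library lay within the NMP range and the higher one above both DN values.

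Pknox2, the other Pknox gene, stood at 7.39, 8.04 and 8.36 CPM in NMPs, at 15.6 and 11.1 CPM in Tbxt 48 h cells and at 11.1 and 11.4 CPM in Sox2 48 h cells. At 7 d it stood at 4.08, 0.396 and 0.263 CPM in Tbxt 7 d cells, or 14, 2 and 1 reads, so that replicates 2 and 3 were under the floor of 3 reads. It stood at 5.71 CPM in FGF/CHIR DN, 5.78 CPM in FGF DN, 13.2 CPM in FGF/CHIR Sox2+ and 13.4 and 15 CPM in FGF Sox2+ cells. The Tbxt 7 d libraries were below all other libraries, and the FGF Sox2+ mean was the highest.

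**Figure D2:**
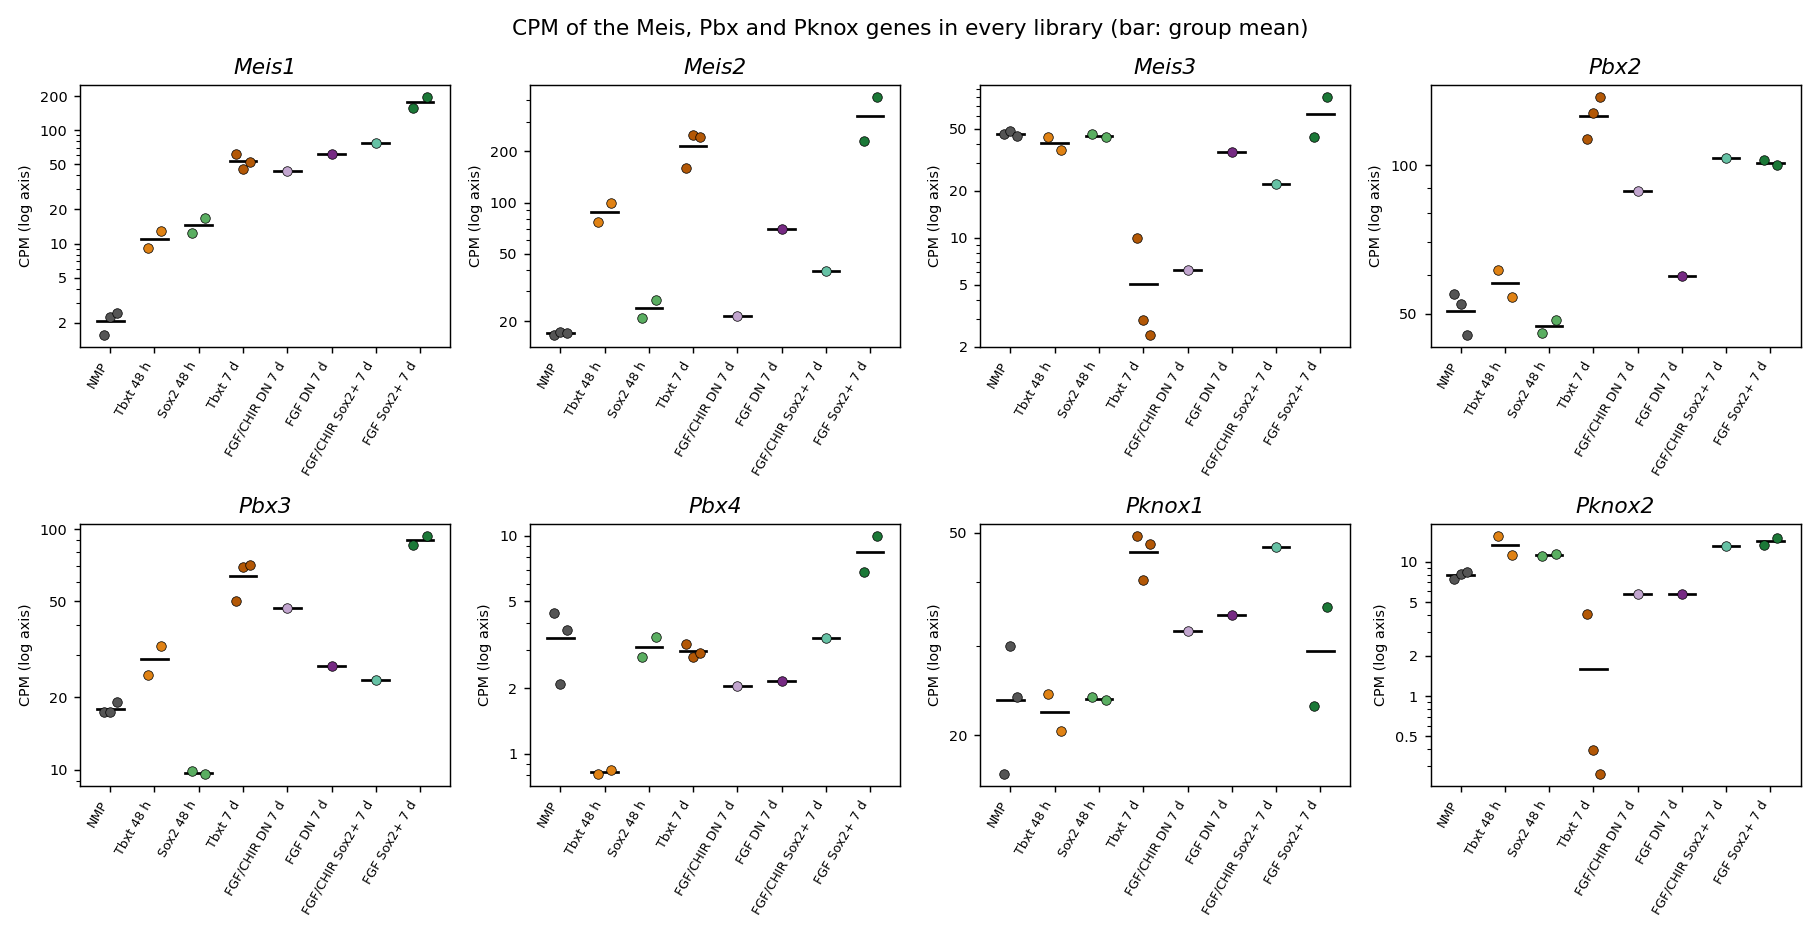
CPM (log axis) of each gene, 1 panel per gene; points are libraries and bars are group means, with the groups from NMP through 48 h to 7 d. Meis1 is lowest in NMPs (1.56 to 2.44 CPM) and highest in FGF Sox2+ cells (158 and 197 CPM), whereas Meis3 and Pknox2 are lowest in Tbxt 7 d cells.

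The comparisons below come from 1 limma fit of log2(CPM + 1) over all 15 libraries, with p-values adjusted by Benjamini-Hochberg over the 12943 genes tested. A value with ± is a log2 fold change ± SE, and genes are called at an adjusted p under 0.05. The pseudocount of 1 understates the change of low genes. In bulk RNA of sorted cells, fewer cells of a type and less RNA per cell cannot be told apart.

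The first question was what differed in cells that kept 1 of the reporters for 48 h. In Tbxt 48 h cells, Meis1 (1.96 ± 0.22, adjusted p = 8.34e-05), Meis2 (2.30 ± 0.25, adjusted p = 7.64e-05) and Pbx3 (0.64 ± 0.18, adjusted p = 0.0295) were above their NMP levels and Pbx4 (-1.23 ± 0.31, adjusted p = 0.0163) was lower. These were 4 of the 8 genes, where 18.4% of all genes tested were called (7.82% higher and 10.5% lower). The median of the 8 was 0.41 against -0.02 over all genes. Every Tbxt 48 h library was above every NMP library for Meis1, Meis2 and Pbx3. The Pbx3 call ended with no filter (adjusted p = 0.0595), without any single NMP library or without Tbxt 48 h replicate 2 (0.0593 to 0.327). The Pbx4 call ended with quantile normalization (0.0989), without NMP replicate 1 or 3 or without either Tbxt 48 h library (0.0619 to 0.119), and Pknox2 (0.67 ± 0.46, adjusted p = 0.343) was called with voom (0.0455) and in the compared groups alone (0.0386). Presomitic mesoderm markers summed to 981 to 1158 CPM in Tbxt 48 h cells, against 157 to 181 CPM in NMPs, and their part in these results was not tested.

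Against the same NMP libraries, Sox2 48 h cells differed in 2 members. Meis1 (2.34 ± 0.22, adjusted p = 4.18e-05) was higher in Sox2 48 h cells and Pbx3 (-0.82 ± 0.18, adjusted p = 0.0155) was lower. The other 6 genes had adjusted p = 0.335 or more, Meis2 among them (0.46 ± 0.25). Over all genes, 7.92% were called, 2.65% higher and 5.27% lower. The Pbx3 call ended without NMP replicate 3 or without either Sox2 48 h library (adjusted p = 0.0658 to 0.132) and with voom (0.0585). Epiblast markers summed to 95.1 to 98.8 CPM in Sox2 48 h cells, against 494 to 517 CPM in NMPs, with 5 of 6 called lower, and neuron markers to 25.7 to 39.2 CPM, against 82.2 to 99.2 CPM, with 1 of 6 tested higher and 1 lower; their part was not tested.

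With time and medium equal, Tbxt 48 h cells held more Meis2 (1.84 ± 0.28, adjusted p = 0.00231) and more Pbx3 (1.46 ± 0.20, adjusted p = 0.00123) than Sox2 48 h cells, 2 of 8 genes with 3.9% of all genes called (2.05% higher and 1.85% lower). Meis1 differed by -0.38 ± 0.24 (adjusted p = 0.406). Both calls kept their side in every alternative tried. Markers of presomitic mesoderm summed to 981 to 1158 CPM in Tbxt 48 h cells (7 of 7 above the floor), against 89.6 to 100.2 CPM in Sox2 48 h cells (6 of 7), and 6 of the 6 tested were called higher; their part in the Meis2 and Pbx3 differences was not tested.

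**Figure D3:**
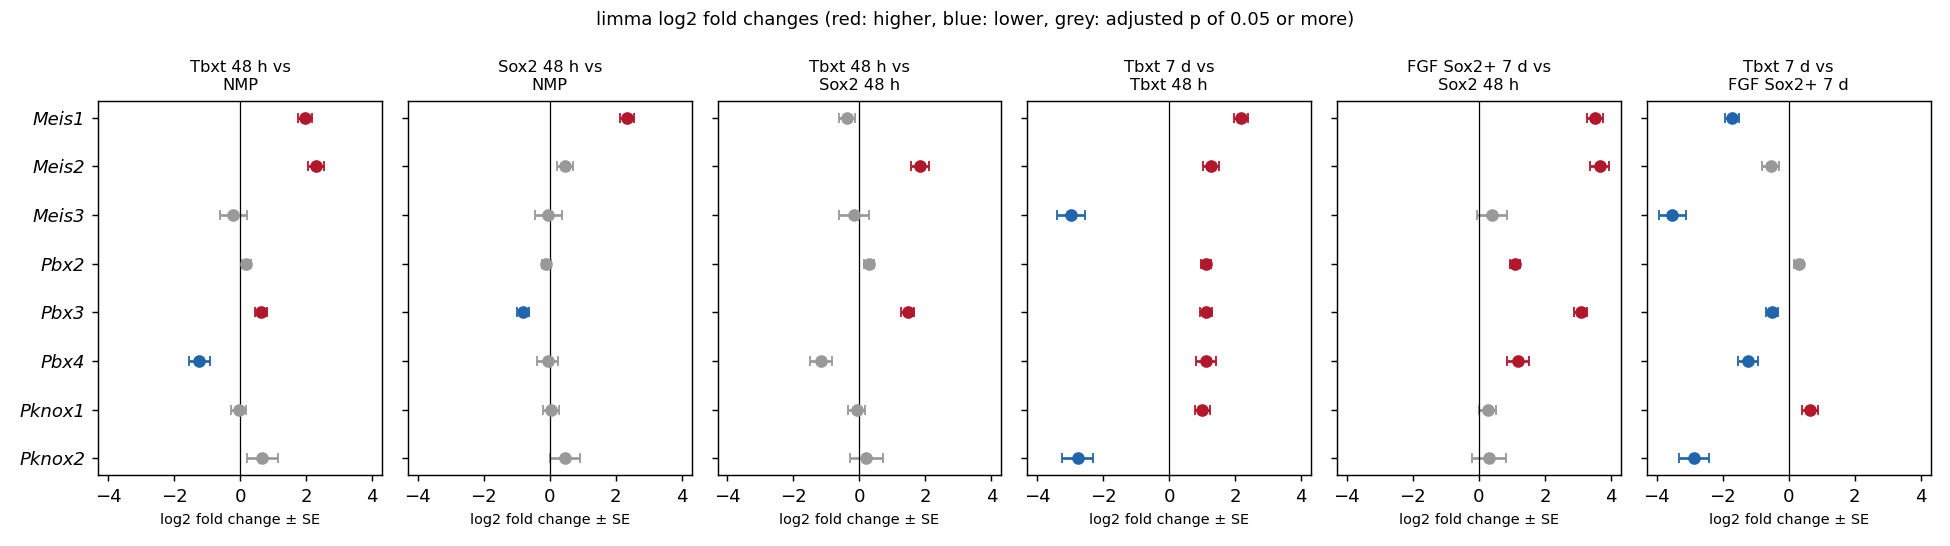
Log2 fold change ± SE (horizontal) of the 8 genes in 6 comparisons, 1 panel each, with red for higher, blue for lower and grey for genes not called. Pbx3 lies on opposite sides of 0 in the panels of Tbxt 48 h (0.64) and Sox2 48 h cells (-0.82) against NMPs, and Meis3 and Pknox2 are the genes called lower in Tbxt 7 d against Tbxt 48 h cells.

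Tbxt-derived cells stayed in FGF/CHIR, but the gate changed with time, GFP+ at 48 h and double negative at 7 d, so time and gate cannot be told apart in this comparison. All 8 genes were called between Tbxt 7 d and Tbxt 48 h cells, where 54.2% of all genes tested were (30.7% higher and 23.5% lower). The Meis genes split: Meis1 (2.18 ± 0.22, adjusted p = 4.37e-06) and Meis2 (1.27 ± 0.25, adjusted p = 0.000961) rose, and Meis3 (-2.97 ± 0.41, adjusted p = 0.000109) fell. The 3 Pbx genes rose, Pbx2 by 1.11 ± 0.14, Pbx3 by 1.12 ± 0.18 and Pbx4 by 1.11 ± 0.31 (adjusted p of at most 0.00875), though the Pbx4 call ended with quantile normalization (adjusted p = 0.109). The Pknox genes split as well, with Pknox1 (1.01 ± 0.24, adjusted p = 0.00306) higher and Pknox2 (-2.78 ± 0.46, adjusted p = 3e-04) lower. The median of the 8 was 1.11 against 0.09 over all genes.

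Tbxt 7 d replicate 1 had the highest Meis3 and Pknox2 of its group, and its marker sums differed in both directions. Neural progenitor markers summed to 30.6 CPM there, against 9.70 and 6.06 CPM in replicates 2 and 3, with Sox1, Hes5, Olig2 and Dbx1 at 0 in all 3. Nkx6-1 held most of this sum, with a group mean of 12.5 CPM, against 0.388 CPM for Fabp7 and 0.67 CPM for Pax6. Neuron markers summed to 32.6 CPM in replicate 1, against 145 and 108 CPM in replicates 2 and 3. Tubb3 held most of the neuron sum, with a group mean of 82.9 CPM, against 0.066 CPM for Elavl3 and 0.643 CPM for Elavl4. Neurog2 and Isl1 were at 0 in all 3. Without replicate 1, Meis3 stood at -3.50 ± 0.24 (adjusted p = 6.56e-08) and Pknox2 at -3.42 ± 0.24 (adjusted p = 9.43e-08) against Tbxt 48 h cells. Mesenchyme markers summed to 6432 to 7824 CPM in Tbxt 7 d cells (8 of 8 above the floor), against 156 to 162 CPM in Tbxt 48 h cells (8 of 8), and presomitic mesoderm markers to 22.1 to 28.2 CPM, against 981 to 1158 CPM, with Msgn1 at 0 in Tbxt 7 d cells. The part of these shifts in the results was not tested.

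For Sox2-derived cells, FGF Sox2+ cells at 7 d were set against Sox2 48 h cells from FGF/CHIR, so time and medium changed together in this comparison. Meis1 (3.52 ± 0.24, adjusted p = 2.54e-06), Meis2 (3.66 ± 0.28, adjusted p = 4.48e-06) and Pbx3 (3.08 ± 0.20, adjusted p = 2.54e-06) rose most, and Pbx2 (1.09 ± 0.15, adjusted p = 0.000358) and Pbx4 (1.18 ± 0.34, adjusted p = 0.0242) rose less. Pbx4 had passed the filter only through these FGF Sox2+ libraries, and its call ended without replicate 2 (adjusted p = 0.12), without either Sox2 48 h library (0.11 and 0.0734), with quantile normalization (0.126), with voom (0.078) and in the compared groups alone (0.07). Meis3 (0.39 ± 0.45), Pknox1 (0.27 ± 0.26) and Pknox2 (0.31 ± 0.51) were not called (adjusted p = 0.48 or more). Over all genes, 24.7% were called (18.2% higher and 6.51% lower), and the median was 0.17, against 0.01 after median-of-ratios scaling and -0.03 after quantile normalization. Neural progenitor markers summed to 748 to 1133 CPM in FGF Sox2+ cells (8 of 8 above the floor), against 83.5 to 125 CPM in Sox2 48 h cells (6 of 8, Olig2 and Dbx1 at 0), and neuron markers to 198 to 692 CPM, against 25.7 to 39.2 CPM. Epiblast markers summed to 269 to 609 CPM, against 95.1 to 98.8 CPM, with 5 of 6 called higher and 0 lower. Of 5 tested endoderm markers 2 were higher and 0 lower, and of 8 mesenchyme markers 2 were higher and 1 lower. Replicate 2, at 0.799 M reads, had the higher neural progenitor and neuron sums and the higher value of every member except Pbx2. Its mesenchyme sum was also higher (454 against 93.8 CPM) and its epiblast sum lower (269 against 609 CPM) than in replicate 1. The part of depth and markers in these results was not tested. In equal medium, time can be read from 1 library only, FGF/CHIR Sox2+, and was not tested. It held 78.0 CPM Meis1, 39.6 CPM Meis2 and 23.6 CPM Pbx3. The Sox2 48 h means were 14.6, 23.9 and 9.72 CPM in that order, and the FGF Sox2+ means 178, 325 and 90.1 CPM.

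The 48 h to 7 d changes of both lineages were then compared in the same model, with medium and gate differing as well. The change was lower in Tbxt-derived than in Sox2-derived cells for Meis1 (-1.34 ± 0.32, adjusted p = 0.00742), Meis2 (-2.38 ± 0.37, adjusted p = 0.000556), Meis3 (-3.36 ± 0.61, adjusted p = 0.00192), Pbx3 (-1.97 ± 0.27, adjusted p = 0.000236) and Pknox2 (-3.08 ± 0.69, adjusted p = 0.00514). Without Tbxt 7 d replicate 1 the Pknox2 difference was -3.73 ± 0.34 (adjusted p = 3.74e-06), and it ran from -4.24 to -1.95 over the alternatives. For Meis1, Meis2 and Pbx3 both lineages rose, and the Tbxt-derived rise was smaller than the rise to FGF Sox2+ cells. The 1 FGF/CHIR Sox2+ library, in the medium of the Tbxt 7 d cells, did not enter this comparison. It held 78.0 CPM Meis1, 39.6 CPM Meis2 and 23.6 CPM Pbx3, against FGF Sox2+ means of 178, 325 and 90.1 CPM. Whether the order of the rises holds in equal medium was not tested. For Meis3 and Pknox2 only the fall in Tbxt-derived cells was called. The difference was 0.03 ± 0.21 for Pbx2, and Pbx2, Pbx4 (-0.07 ± 0.46) and Pknox1 (0.74 ± 0.35) were not called (adjusted p = 0.121 or more), though Pknox1 was without FGF Sox2+ replicate 2 (0.0459). Of all genes, 33.6% were called (14.2% higher and 19.4% lower), and the median of the 8 was -1.66 against -0.07 over all genes.

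At 7 d the levels themselves differed between Tbxt 7 d and FGF Sox2+ cells for 6 of the 8 genes, with 47.6% of all genes called (21.1% higher and 26.5% lower). Meis1 (-1.72 ± 0.22, adjusted p = 4.02e-05), Meis3 (-3.52 ± 0.41, adjusted p = 3.97e-05) and Pknox2 (-2.87 ± 0.46, adjusted p = 0.000299) were lower in Tbxt 7 d cells and kept their side in every alternative tried. Pbx4 (-1.23 ± 0.31, adjusted p = 0.00588) was lower too, having passed the filter only through FGF Sox2+ cells. Pbx3 (-0.51 ± 0.18, adjusted p = 0.0352) was lower and Pknox1 (0.66 ± 0.24, adjusted p = 0.037) higher, but neither call was stable. The Pbx3 call ended without either FGF Sox2+ library or Tbxt 7 d replicate 1 (adjusted p = 0.0758 to 0.151), with no filter (0.0653), with median-of-ratios scaling (0.0683) and in the compared groups alone (0.0698). The Pknox1 call ended without FGF Sox2+ replicate 1 (adjusted p = 0.345) or Tbxt 7 d replicate 1 or 3 (0.0675 and 0.0872), with no filter (0.0902) and in the compared groups alone (0.0567). Meis2 overlapped between the groups and was not called (-0.55 ± 0.25, adjusted p = 0.0918), though it was without FGF Sox2+ replicate 1 (-0.98 ± 0.26, adjusted p = 0.0128). Pbx2 (0.31 ± 0.14, adjusted p = 0.0875) was called with median-of-ratios scaling (0.0469) and without Tbxt 7 d replicate 1 (0.0429). The log2 fold change of Pknox2, low in Tbxt 7 d cells, ran between -1.77 and -3.99 over the alternatives and was -3.51 ± 0.24 without Tbxt 7 d replicate 1. Neural progenitor markers summed to 6.06 to 30.6 CPM in Tbxt 7 d cells, against 748 to 1133 CPM in FGF Sox2+ cells, and mesenchyme markers to 6432 to 7824 CPM, against 93.8 to 454 CPM; their part was not tested.

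Within the Sox2-derived cells at 7 d, double negative cells were compared with mCherry+ cells, averaged over the 2 media. Meis1 (-1.16 ± 0.22, adjusted p = 0.00436), Meis2 (-1.50 ± 0.26, adjusted p = 0.00206), Pbx2 (-0.49 ± 0.14, adjusted p = 0.0402) and Pbx4 (-1.04 ± 0.32, adjusted p = 0.0474) were lower in DN cells, 4 of 8 genes where 14.1% of all genes were called (7.12% higher and 6.99% lower). Pbx4 had passed the filter only through FGF Sox2+ cells, and its call ended without FGF Sox2+ replicate 2 (adjusted p = 0.0822), with a pseudocount of 0.25 (0.0668), median-of-ratios scaling (0.0715), quantile normalization (0.0583) or voom (0.107) and in the compared groups alone (0.297). The Pbx2 call ended without either FGF Sox2+ library (adjusted p = 0.0578 and 0.0676), with median-of-ratios scaling (0.106) or quantile normalization (0.0593) and in the compared groups alone (0.111). Meis3 (-1.21 ± 0.42, adjusted p = 0.0813) was called in 5 alternatives (0.0283 to 0.0497), and Pknox2 (-1.12 ± 0.48, adjusted p = 0.138) with a pseudocount of 4 (0.0395) and voom (0.0478). Pbx3 had opposite orders in the 2 media: FGF/CHIR DN cells had 47.1 CPM against 23.6 CPM in FGF/CHIR Sox2+ cells, and FGF DN cells had 27.0 CPM against 86.2 and 93.9 CPM in FGF Sox2+ cells. Each DN group is 1 library. Without FGF DN, which leaves 1 library against 1 in FGF/CHIR with the spread of the other groups, no member was called (Meis1 -0.81 ± 0.34, adjusted p = 0.269; Meis2 -0.85 ± 0.39, adjusted p = 0.333). Endoderm markers summed to 222 CPM in FGF/CHIR DN (5 of 7 above the floor) and 1136 CPM in FGF DN cells (6 of 7), against 14.4 CPM in FGF/CHIR Sox2+ (4 of 7) and 40.1 to 62.6 CPM in FGF Sox2+ cells (5 of 7), and epiblast markers to 305 and 867 CPM, against 91.6 and 269 to 609 CPM. Neural progenitor markers summed to 23.1 CPM in FGF/CHIR DN and 91.8 CPM in FGF DN cells, against 96.9 CPM in FGF/CHIR Sox2+ and 748 to 1133 CPM in FGF Sox2+ cells, with 5 of 6 tested called lower. Mesenchyme markers summed to 2296 and 407 CPM in the DN groups in that order, against 537 CPM and 93.8 to 454 CPM, with 3 of 8 called higher. The part of these markers was not tested.

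The medium was compared in the same cells, averaged over the gates. Meis2 (-2.30 ± 0.26, adjusted p = 0.000124), Meis3 (-1.87 ± 0.42, adjusted p = 0.0132) and Meis1 (-0.82 ± 0.22, adjusted p = 0.0277) were lower in FGF/CHIR than in FGF, so that the called genes were the 3 Meis genes, with 13.8% of all genes called (5.94% higher and 7.86% lower). Meis2 was at 21.5 and 39.6 CPM in the FGF/CHIR libraries and at 69.5, 230.4 and 419 CPM in the FGF libraries, which did not overlap. Its call held in every alternative tried, and its log2 fold change was -2.94 without FGF DN. Each FGF/CHIR group is 1 library and no alternative left either out, so medium and library cannot be told apart on that side. The Meis1 call ended without FGF Sox2+ replicate 2 (adjusted p = 0.0616) and the Meis3 call without FGF DN (adjusted p = 0.15). Without FGF DN the comparison is between mCherry+ cells alone, 1 FGF/CHIR library against 2 FGF libraries. There the log2 fold change of Pbx3 was -1.88, against -0.55 (not called) with all 4 groups. Neural progenitor markers summed to 23.1 and 96.9 CPM in the FGF/CHIR libraries (2 and 5 of 8 above the floor), against 91.8 CPM in FGF DN (7 of 8) and 748 to 1133 CPM in FGF Sox2+ cells (8 of 8). Of the 6 tested, 5 were called lower and 1 higher in FGF/CHIR. Also lower were 4 of 6 tested neuron, 6 of 6 epiblast and 4 of 5 endoderm markers, with 0 higher. Of 8 mesenchyme markers 3 were higher and 1 lower. The part of these markers in the Meis differences was not tested.

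Tbxt 7 d cells and FGF/CHIR DN cells shared medium, time and gate and differed in the reporter of the cells they came from. Meis2 was higher in Tbxt 7 d cells (3.25 ± 0.32, adjusted p = 4.33e-05), at 159 to 249 CPM against 21.5 CPM, and was the only member called, with 16.7% of all genes called (7.88% higher and 8.86% lower). Meis1 (0.26 ± 0.28) and Pbx3 (0.41 ± 0.23) were not called (adjusted p = 0.549 and 0.246). Without Tbxt 7 d replicate 1, Pbx2 was called higher (adjusted p = 0.0344) and Meis3 (0.0275) and Pknox2 (9.3e-05) lower, and Pknox2 was also called lower with quantile normalization (0.0358) and voom (0.0259). Mesenchyme markers summed to 6432 to 7824 CPM in Tbxt 7 d cells (8 of 8 above the floor) and to 2296 CPM in FGF/CHIR DN cells (7 of 8, Meox1 at 0), and endoderm markers to 1.98 to 9.61 CPM in Tbxt 7 d and 222 CPM in FGF/CHIR DN cells; their part was not tested. FGF/CHIR DN is 1 library, so group and library cannot be told apart.

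The Hox genes, whose products pair with these factors, were counted in the same comparisons, and all lists were assembled with earlier results of these data known. For every list, the share of all genes called is the one given above for that comparison. Of 15 tested genes of paralog groups 9 to 13, 6 were above and none below the NMP level in Tbxt 48 h cells, and likewise 6 and none in Sox2 48 h cells, with Hoxc10 (5.16 ± 0.37 and 6.13 ± 0.37) changed most in each. Tbxt 7 d cells had 6 of them higher and 2 lower than Tbxt 48 h cells, with Hoxd11 (5.49 ± 0.58) and Hoxa11 (4.81 ± 0.39) leading, while of 22 genes of groups 1 to 8, 1 was higher and 20 were lower, such as Hoxb2 (-4.11 ± 0.29). The median log2 fold changes were 1.22 and -2.51, against 0.09 over all genes. In FGF Sox2+ against Sox2 48 h cells, 8 of 15 and 13 of 22 fell, and 0 and 2 rose, in the samples in which Meis1, Meis2 and Pbx3 rose. In FGF/CHIR against FGF, 14 of 15 genes of groups 9 to 13 and 13 of 22 of groups 1 to 8 were higher, with 0 and 2 lower, in the comparison in which the 3 Meis genes were lower. Hoxd11 (6.08 ± 0.60) and Hoxa5 (2.89 ± 0.20) were among them. Other comparisons had Hox and member genes on the same side. In DN against Sox2+ cells, where Meis1 and Meis2 were lower, 18 of 22 genes of groups 1 to 8 were lower. So were 4 of 15 of groups 9 to 13, and none of either list was higher. At 48 h, where Meis1 was above the NMPs, 6 of 22 genes of groups 1 to 8 were higher and 2 lower in Tbxt 48 h cells. In Sox2 48 h cells 7 were higher and 2 lower. A relation of Hox and member changes was not tested.

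Of the other TALE families, 7 genes were tested. In FGF Sox2+ against Sox2 48 h cells 5 rose, led by Irx5 (3.40 ± 0.63), Irx2 (3.16 ± 0.42) and Irx1 (2.62 ± 0.54), transcription factor genes of neural patterning, and none fell. In Tbxt 7 d against Tbxt 48 h cells Irx5 (5.03 ± 0.57) and Irx3 (3.38 ± 0.53) rose and Irx2 (-1.39 ± 0.38) fell. Tgif1, a repressor gene of the class, was lower (-0.59 ± 0.12 and -0.76 ± 0.12) and Tgif2 higher (0.63 ± 0.13 and 0.47 ± 0.13) in Tbxt 48 h and in Sox2 48 h cells than in NMPs.

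Genes of retinoic acid handling and response were counted because Meis genes are known to respond to that signal. Of 11 tested, 8 rose and 1 fell in Tbxt 7 d against Tbxt 48 h cells, where 30.7% of all genes were higher and 23.5% lower. The degrading enzyme gene Cyp26b1 (4.38 ± 0.39) and the binding protein gene Crabp1 (3.02 ± 0.40) were higher, and Cyp26a1 was listed at 0 in Tbxt 7 d cells against a mean of 64.1 CPM. In FGF Sox2+ against Sox2 48 h cells, 7 rose and 2 fell, with Crabp1 (7.27 ± 0.44) higher and the retinol uptake receptor gene Stra6 (-3.65 ± 0.95) lower. In Tbxt 48 h against Sox2 48 h cells, where Meis2 and Pbx3 were higher, 2 were higher and none lower, namely Cyp26a1 (4.89 ± 0.24) and Crabp1 (4.34 ± 0.44). In FGF/CHIR against FGF, 4 were higher and 4 lower, with 5.94% of all genes higher and 7.86% lower.

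**Figure D4:**
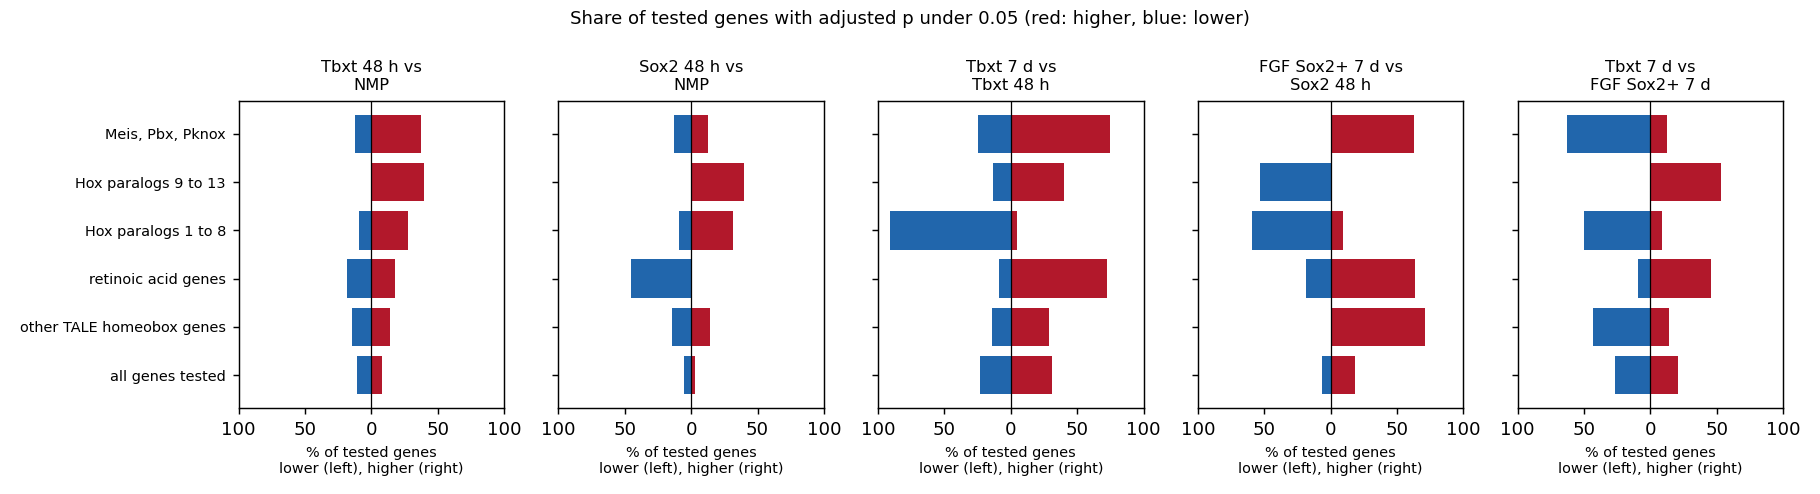
Percent of tested genes called higher (red, right of 0) and lower (blue, left of 0) in 5 comparisons, for the 8 genes, Hox paralogs 9 to 13, Hox paralogs 1 to 8, retinoic acid genes, other TALE genes and all 12943 genes. In Tbxt 7 d against Tbxt 48 h cells, 6 of the 8 Meis, Pbx and Pknox genes are to the right and 20 of 22 Hox genes of paralogs 1 to 8 to the left.

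The genes whose 8 group means on the log2(CPM + 1) scale were most like those of each member were taken from 5529 candidates that spanned at least 1 on that scale and reached 20 CPM. They are a description over 8 groups that share libraries and depth. Pbx3 was closest to Crabp1 (Pearson r = 0.97), followed by Elmod2 (0.97) and Asap2 (0.94), and Pknox2 to the chromatin remodeller gene Chd7 (0.99), Cadm1 (0.98) and Usp10 (0.98). Meis3 was closest to Fam136a (0.99), Dnajc24 (0.97) and Lypla1 (0.97). Pbx2 was closest to the netrin receptor gene Unc5c (0.98), Usp49 (0.97) and Tmem94 (0.97). Pbx4 had Adgrv1 (0.97), Maf1 (0.96) and Bckdha (0.94), and Pknox1 had Tmem134 (0.95), Zfp395 (0.93) and Stk25 (0.93). Meis2 had Marchf6 (0.95), C2cd5 (0.94) and Anks1 (0.93), and Meis1, with the lowest values, had Tmem185b (0.91), Sbno2 (0.91) and the transcription factor gene Sox9 (0.90).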

How the data were processed

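Per the labels' protocols, RNA was extracted on beads from sorted cells, and cDNA primed by oligo-dT with a molecular identifier was tagmented. Per the submitters' processing notes, reads were aligned to GRCm39 with STAR 2.7, and SAMtools 1.21 was used; the sources used here do not give annotation, counting, strand, collapsing of identifiers or the handling of reads with several locations. The authors deposited CPM for 78409 rows; 21909 rows without a name and 92 spike-in rows were left out (1.10 to 1.81% of CPM had no name), and 627 rows sharing 311 symbols were summed. The step of 1 read was inferred per library; 71.1 to 78.7% of nonzero values were whole within 0.01 reads, so whole reads were not recovered and edgeR was not run.

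The limma-trend test (limma 3.58.1 under R 4.3.3, robust and two-sided) was run on log2(CPM + 1) in 1 fit of 8 groups with 7 residual degrees of freedom, after a filter of 5 CPM in 2 or more libraries. Of 10 comparisons, those with groups of 1 library borrow the spread of the others. Members, lists and tests were chosen with earlier results of these data known. The text names all members, up to 3 called genes per list and comparison with the largest change, and for each member the 3 most similar genes; it leaves some out for length. Alternatives were pseudocounts of 0.25 and 4, no filter or 20 CPM, median-of-ratios scaling, quantile normalization, voom on inferred reads, the compared groups alone, the library number as a block, and each replicate left out in turn. Promoters were matched by symbol for 5 of 8 members. Software was matplotlib 3.10.9, pandas 2.3.3 and numpy 2.4.6 under Python 3.11.15, with version 1.17.8 of data.table and statmod 1.5.0 in R.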

Additional observations from a re-analysis of the deposited data

Results flagged for a closer look

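The change from 48 h to 7 d differed between Tbxt-derived and Sox2-derived cells for 5 of the 8 genes, by the interaction in the limma model, with 33.6% of all genes called. The differences, Tbxt-derived minus Sox2-derived, were -1.34 for Meis1, -2.38 for Meis2, -3.36 for Meis3, -1.97 for Pbx3 and -3.08 for Pknox2 on the log2 scale. The Tbxt-derived cells stayed in FGF/CHIR and were double negative. The Sox2-derived cells compared here were those in FGF at 7 d and were mCherry+. Lineage, medium and gate therefore cannot be told apart in these values. The 1 FGF/CHIR Sox2+ library did not enter. It held Meis1, Meis2, Meis3, Pbx3 and Pknox2 at 78.0, 39.6, 22.1, 23.6 and 13.2 CPM, against FGF Sox2+ means of 178, 325, 62.0, 90.1 and 14.2 CPM. All 5 stayed called under the alternatives tried, with the highest adjusted p of each gene at 0.044 (Meis1), 0.00465 (Meis2), 0.00904 (Meis3), 0.00209 (Pbx3) and 0.0219 (Pknox2). The Pknox2 difference ran from -4.24 to -1.95 over the alternatives and was -3.73 without Tbxt 7 d replicate 1.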

How the results depend on the processing

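No result changed direction past the threshold under any alternative. The number of members called in Sox2 48 h against NMP cells was 1 with voom and 1 to 2 with each replicate left out, against 2. In Tbxt 48 h against NMP cells it was 2 to 3 with each replicate left out, against 4. In DN against Sox2+ cells it was 2 with median-of-ratios scaling and 0 to 4 with a library left out, against 4; the 0 came without FGF DN, a choice made after seeing the data. In Tbxt 7 d against FGF/CHIR DN cells it was 2 with quantile normalization, 2 with voom and 1 to 4 with each replicate left out, against 1. The causes were not tested, except that fewer libraries entered where one was left out. Over all genes, 1025 calls in Sox2 48 h against NMP cells became 668 with the 20 CPM filter, 1760 in the compared groups alone, 683 under the block and as few as 316 with a replicate left out. Likewise 2376 (Tbxt 48 h against NMP) became 709, 505 (Tbxt 48 h against Sox2 48 h) became 1051 in the groups alone and 132 with a replicate left out, and 3203 (FGF Sox2+ against Sox2 48 h) became 1456. Also 1826 (DN against Sox2+) became 1179 in the groups alone and 456 without FGF DN, 1786 (FGF/CHIR against FGF) became 2771 without a filter and 1153 without FGF DN, 2167 (Tbxt 7 d against FGF/CHIR DN) became 558 in the groups alone and 1378 without Tbxt 7 d replicate 3, and 4346 (change difference) became 2595. The labels do not say whether library numbers pair samples across groups, so they were not taken to pair them. Same-numbered libraries had deviations correlated at -0.19 to 0.48, with NMP and Tbxt 48 h libraries at 0.48 and 0.46. In a group of 2 libraries the deviations mirror each other, so these values cannot decide whether the numbers pair. With the replicate block, the member calls of Tbxt 48 h against NMP cells did not change. Tbxt 7 d against FGF Sox2+ cells lost Pknox1 (adjusted p = 0.0784) and gained Meis2 (0.0293). With the 48 h numbers crossed, 2 members and 404 genes were called between Tbxt 48 h and Sox2 48 h cells. The replicate block was not run for the 3 comparisons with single libraries, whose groups share fewer than 2 numbers. Pbx4 and Pknox2 had no value with the 20 CPM filter, which they did not pass.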

Other observations

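Among the 28 pairs of the 8 genes, Pearson's r of the 8 group means on the log2(CPM + 1) scale ran from -0.63 (Meis3 and Pknox1) to 0.81 (Pbx2 and Pknox1), as a description over groups that share libraries. Meis3 and Pknox2, the genes that fell in Tbxt 7 d cells, had r = 0.77 with each other. That group is 1 of the 8 means in r, so the value is not separate from the shared fall. Pknox2 rested there on 14, 2 and 1 reads. Meis3 had negative values with Pbx2 (-0.62) and Pbx3 (-0.37). Meis1 and Meis2 had r = 0.63.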
